A study of Bos taurus with 90 samples.

Results

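Mural granulosa cells (MGCs) were compared with cumulus cells (CCs) of the same follicle in 8 small antral follicles of cattle, 16 libraries of the 90 in the whole series. The members were all small follicles, 3.1 to 3.8 mm in diameter, whose MGC and CC columns could be paired by the follicle number in the titles of the labels, and a follicle is named here by the shared end of these titles (S50501 for GS50501 and CS50501). The members were follicles S50501, S70501, S50506, S62005, S62004, S62003, S50502 and S71701. Follicle S70702, which was removed by the study for its quality, and follicle S70701, whose CC column holds counts for a fraction of the genes only, were left out. The study classed follicles S62005, S62004 and S62003 as healthy by the expression of marker genes in their MGCs. It classed the other members as unhealthy although their morphology was normal, and excluded follicles of this kind from its main developmental analyses. All 8 are compared here. The ovaries were collected from slaughtered cows, the follicles were untreated, and the age of the animals is not given in the sources used here. A follicle contributed 1 MGC library, made by bulk RNA sequencing, 1 library of a small pool of CCs tightly attached to the oocyte, amplified by SMART-seq2, and 1 library of the single oocyte, also amplified by SMART-seq2. Cell type and library protocol therefore cannot be told apart in any MGC to CC difference given here. Several follicles may come from 1 cow, since the labels do not tie follicles to animals, and p-values measure the spread between follicles.

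Granulosa cells of an antral follicle are divided by the fluid-filled antrum into those that line the follicle wall and those that surround the oocyte. The MGCs of the wall are known for steroid production under gonadotropin control and for their response to the ovulatory surge of luteinizing hormone. The CCs are coupled to the oocyte through processes that cross the zona pellucida, supply it with metabolites, and are exposed to growth factors that the oocyte secretes, which are known to restrain mural gene expression in CCs. The comparison asks how far the RNA of both compartments had diverged in follicles of the smallest size class.

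Genes carry Ensembl identifiers in the deposited table and no names are paired with them, so no gene could be described by its function, and the cell type labels could not be checked against marker genes. Levels are given as CPM, the count of a gene in each 1000000 counts of its library. Total counts ranged from 26739954 to 38374499 in MGCs and from 8760201 to 34620362 in CCs. The CC libraries of follicles S50501 and S71701 stood apart. Their 10 most abundant genes held 26.3% and 21.3% of the counts, against 10.7% to 12.2% in the other 6 CC libraries, and the spread between CC pools (biological coefficient of variation) was 0.817 with them and 0.507 without them, against 0.557 and 0.575 in MGCs. These 2 CC libraries also had the lowest mapping rates of the 8 in the study's table. Some results are given with and without their follicles, and the others for all 8 follicles only.

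Libraries mostly resembled their own cell type more, but the ranges overlapped. Over the 13585 genes tested, Spearman's rho of log2(CPM + 1) ranged from 0.765 to 0.987 between MGC libraries (28 pairs, median 0.887) and from 0.740 to 0.972 between CC libraries (28 pairs, median 0.921). Between an MGC and a CC library it ranged from 0.444 to 0.789 (64 pairs, median 0.701), so that the highest of these values exceeded the lowest within either cell type. The mean rho between MGCs and CCs was 0.689 over the 8 same-follicle pairs and 0.685 over the other pairings. The CC pools of 6 follicles were alike (0.917 to 0.972), whereas that of follicle S50501 had a rho of 0.740 to 0.796 with these 6 and of 0.878 with that of follicle S71701. Among MGCs, the library of follicle S50502 was the most distant from the CC pools, with a rho of 0.444 to 0.617. The MGC libraries of follicles S62005, S62004 and S62003 were the most alike, with a rho of 0.980 to 0.987 between them. Every other pair of MGC libraries had a rho of 0.929 or less. These values are descriptions over genes, which are not independent, and carry no test.

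**Figure D1:**
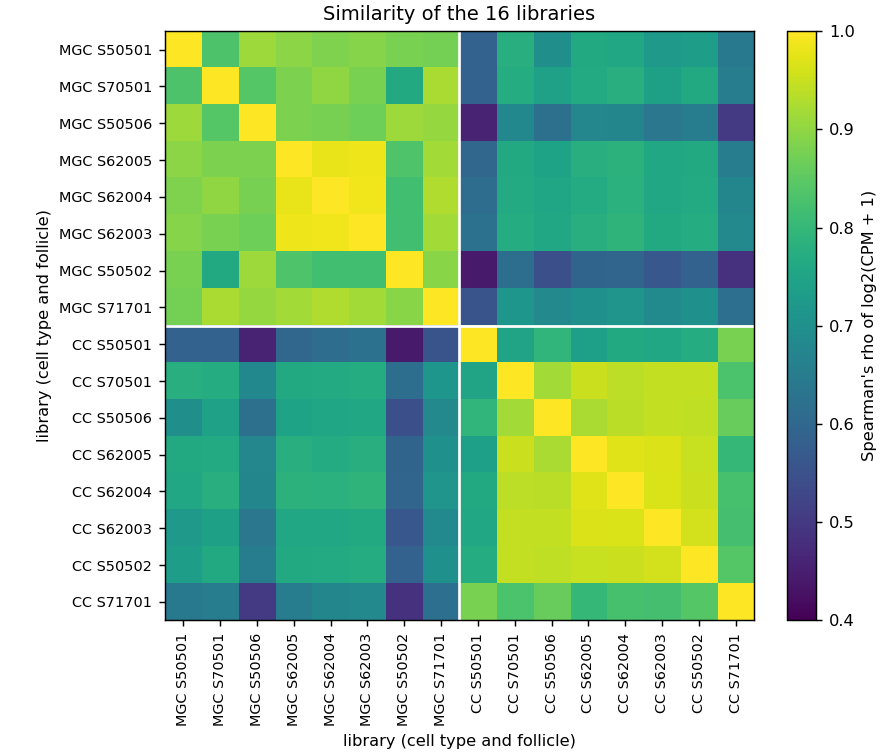
Spearman's rho of log2(CPM + 1) over the genes tested between the 8 MGC and 8 CC libraries, labelled by cell type and follicle, with white lines between the cell types. Values within MGCs are 0.765 or more, values between MGCs and CCs are 0.789 or less, and the CC pools of follicles S50501 and S71701 stand apart from the other 6.

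Fewer genes were detected in CCs. At least 1 count was found for 17491 ± 682 genes in MGCs (SD, n = 8) and for 14934 ± 1538 genes in CCs (SD, n = 8), with more in MGCs in 8 of 8 follicles. The mean difference within follicles was 2557 ± 1822 genes (SD, n = 8, p = 0.0078 by an exact two-sided sign-flip permutation test, the smallest p that 8 pairs allow, and 0.0117 after Benjamini-Hochberg adjustment over 3 such tests). The difference was also present when all libraries were thinned to 8760201 counts, the lowest total, with 16417 ± 635 genes in MGCs (SD, n = 8) and 14213 ± 1455 in CCs (SD, n = 8). Without follicles S50501 and S71701 the mean difference was 1840 ± 1263 genes (SD, n = 6, exact p = 0.0312, the smallest that 6 pairs allow). The share of counts in the 10 most abundant genes, also among the 3 tests, averaged 12.4% in MGCs and 14.6% in CCs. It was higher in MGCs in 4 of 8 follicles (exact sign-flip permutation p = 0.516, adjusted p = 0.516).

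The genes above 1 CPM were mostly shared. In a follicle, a median of 10987 genes exceeded 1 CPM in both cell types (range 8207 to 11206), which was 59.7% to 84.0% of those that did so in either. A median of 2008 genes (range 1049 to 5048) exceeded 1 CPM in MGCs only and 697 (range 494 to 1046) in CCs only. The first number was the larger in every follicle, by 1650 ± 1460 genes on average (SD, n = 8, exact sign-flip permutation p = 0.0078, adjusted p = 0.0117), although in follicle S70501 the margin was small, with 1049 against 1046 genes. Follicles S50501 and S71701 had the most MGC-only genes, 5048 and 3381, and without them the mean difference was 974 ± 696 genes (SD, n = 6, exact p = 0.0312).

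**Figure D2:**
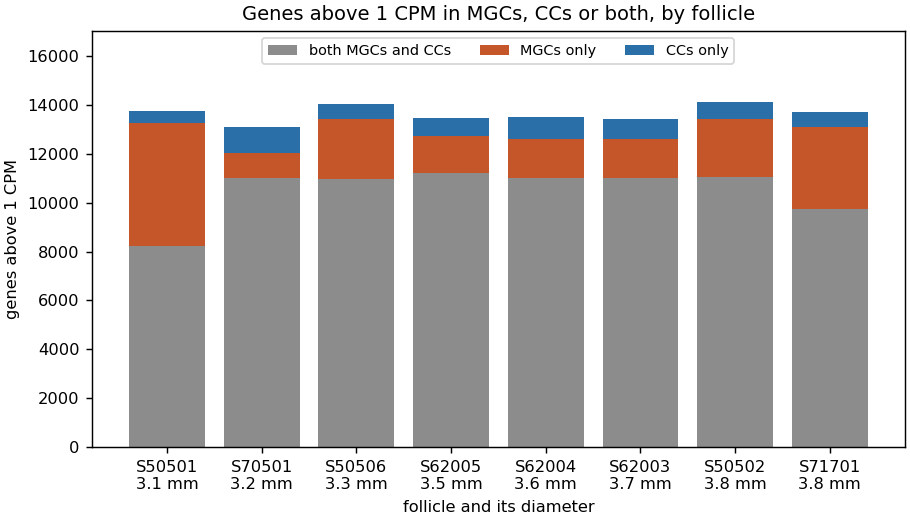
Number of genes above 1 CPM (y axis) in both cell types, in MGCs only or in CCs only, in each of the 8 follicles ordered by diameter (x axis). Shared genes number 8207 to 11206, and MGC-only genes exceed CC-only genes in every follicle, by the most in S50501 and the least in S70501.

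A stricter split kept few genes. Of the 13585 genes tested, 192 were above 1 CPM in all 8 MGC libraries and in none of the 8 CC pools. The opposite pattern was found for 42 genes, beside 7430 genes above 1 CPM in all 16 libraries. Without follicles S50501 and S71701 these numbers were 217, 80 and 9718, the cumulus count moving the most in proportion. The median level of the 192 mural genes in MGCs ranged from 1.42 to 142 CPM, and 66 of them lay above 10 CPM. The median level of the 42 cumulus genes in CCs ranged from 2.16 to 94.9 CPM, and 9 of them lay above 10 CPM. By the medians of the other size classes, 177 and 181 of the 192 genes were divided in the same way in medium and large follicles, as were 41 and 40 of the 42. In the oocytes of the 8 small follicles, 72 of the 192 mural genes and 29 of the 42 cumulus genes had a median above 1 CPM. Over all genes tested, 23.4% had an oocyte median under 1 CPM, so most genes tested lay at or above that level.

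Many genes differed in level between MGCs and CCs in both directions, more of them higher in MGCs. The test was edgeR's quasi-likelihood test with the follicle as a block, after TMM scaling, which sets a factor for each library from the genes that change least. A call required an adjusted p (Benjamini-Hochberg) under 0.05 and a fold change over 2. Of 13585 genes, 3809 (28.0%) were higher in MGCs and 2392 (17.6%) were higher in CCs, and the calls together made up 45.6%. Among the calls, 61.4% were higher in MGCs. Without the TMM factors, the excess was uneven between follicles. On the log2(CPM + 1) scale of the column totals, 9384 of the genes tested were over 2-fold higher in MGCs and 1285 in CCs in follicle S50501, and 7560 and 1791 in follicle S71701, whereas follicle S70501 had 2794 and 3958 genes and follicle S62005 had 3057 and 3231. In the other 4 follicles 3189 to 5973 genes were over 2-fold higher in MGCs and 2579 to 3258 in CCs, with more in MGCs in each. These counts leave out the TMM factors. The factors were 1.52 in MGCs and 0.434 in CCs of follicle S50501, and 1.22 and 0.586 in follicle S71701. They were 0.919 and 1.13 in follicle S70501, and 1.01 and 1.16 in follicle S62005. The part of this scaling in the unevenness was not tested. The median log2 fold change over all genes tested was 0.32 in favour of MGCs with TMM, and 0.62 with the column totals alone, under which 69.0% of the calls were higher in MGCs.

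The differences in favour of MGCs were the larger ones. Of the 3809 genes higher in MGCs, 1285 differed over 16-fold, 1481 from 4- to 16-fold and 1043 from 2- to 4-fold, with a median log2 fold change of 2.94. Of the 2392 genes higher in CCs, 202 differed over 16-fold, 961 from 4- to 16-fold and 1229 from 2- to 4-fold, with a median of 1.96 on the same scale. No count in the other cell type was found for 98 of the genes higher in MGCs and 5 of those higher in CCs. Set to the bound given by 3 counts over the 8 libraries, these few genes still lie above the medians, which are then 2.94 and 1.96 by construction.

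**Figure D3:**
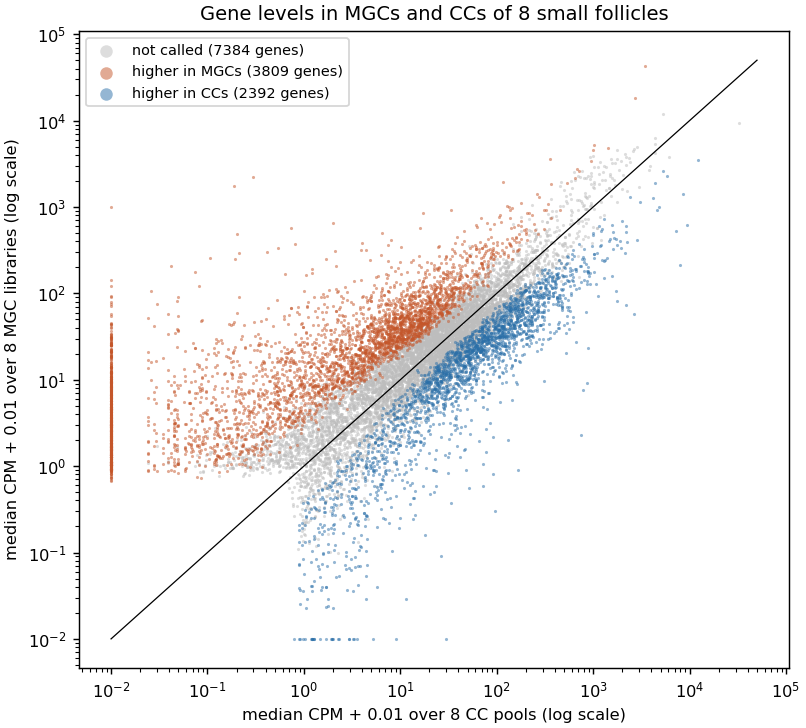
Median CPM + 0.01 over the 8 CC pools (x axis) against that over the 8 MGC libraries (y axis), both on log scales, for each gene tested, with a line at equal levels. The 3809 genes higher in MGCs (orange) extend to low CC levels, with a column of genes at a CC median of 0, and the 2392 genes higher in CCs (blue) lie closer to the line.

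Directions held within follicles for most of the calls. Of the genes called higher in MGCs, 2954 (77.6%) had the higher CPM in MGCs in all 8 follicles, against 25.4% of all genes tested. Of those called higher in CCs, 1251 (52.3%) had the higher CPM in CCs in all 8 follicles, against 9.49% of all genes tested. Follicle S50501 was the main exception for the second group, since 62.0% of these genes were higher in its CC pool, against 84.5% in follicle S71701 and 95.6% to 99.2% in the other 6. For the genes higher in MGCs the lowest share was 86.7%, in follicle S70501, against 95.9% to 99.9% elsewhere. These shares use CPM without the TMM factors. They come from the libraries that made the calls and are given as descriptions.

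Many genes were fully separated between the cell types. In 2158 genes (15.9%) all 8 MGC libraries lay above all 8 CC libraries, and in 814 genes (5.99%) all 8 CC libraries lay above. Without follicles S50501 and S71701, a setting chosen after the data were seen, these numbers were 2376 (17.5%) and 2207 (16.2%). The count in favour of CCs thus moved the most. Separation of 6 from 6 libraries is a weaker demand than of 8 from 8, and no other pair of follicles was left out for comparison. These counts use CPM without the TMM factors. The calls moved less than the count of separated genes in favour of CCs. In the remaining 6 follicles 3646 of 13169 genes (27.7%) were higher in MGCs and 2743 (20.8%) were higher in CCs, 48.5% in all, and these included 3333 of the 3809 and 2075 of the 2392 genes called in 8 follicles. In follicles S62005, S62004 and S62003, which are the study's healthy small follicles, 3692 and 2535 of 12729 genes were called. In follicles S50501, S50506 and S50502 these numbers were 888 and 1075 of 12728 genes. At an unadjusted edgeR p under 0.05 with the same fold limit there were 6349 genes in the first set and 4756 in the second. The median log2 fold change in favour of MGCs was 0.14 in the first set and 0.57 in the second. The second set holds the CC pool of follicle S50501, and the reason for its fewer calls was not tested. What the shared leading digits of a follicle number stand for is not stated in the sources used here.

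Genes higher in CCs were, as a group, more abundant. The median level of the 2392 genes in CCs was 52.4 CPM, against 17.5 CPM in MGCs, while the 3809 genes higher in MGCs had a median of 20.05 CPM in MGCs and 2.38 CPM in CCs. Over the classes of mean CPM from under 1, 1 to 10, 10 to 100, 100 to 1000 and over 1000, the share of genes higher in MGCs was 52.5%, 33.5%, 25.9%, 17.5% and 10.9%. The share higher in CCs was 10.6%, 11.2%, 17.6%, 36.2% and 22.7% in the same order. Genes under 10 CPM were thus called more often in favour of MGCs, and genes of 100 CPM or more in favour of CCs. Genes were admitted to the test by exceeding 1 CPM in enough libraries of either cell type. Among genes with a mean under 1 CPM, this rule favours those with uneven levels between libraries. It can therefore raise the called shares of the lowest class, in either direction. The part of this rule in the trend was not tested, and the library protocol cannot be told apart from the cell type in it.

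The called genes held a large part of the RNA. Genes higher in MGCs took 28.2% to 38.3% of the counts of MGC libraries and 2.86% to 7.89% of those of CC pools. Genes higher in CCs took 37.0% to 48.3% of the counts of CC pools and 8.74% to 13.2% of those of MGCs. With the same calls, the CC pools without follicles S50501 and S71701 held 5.32% to 7.89% in genes higher in MGCs. They held 37.0% to 46.0% in genes higher in CCs. These shares follow from the calls and were not tested. In the oocytes of the same follicles, which the calls did not use, genes higher in MGCs took 6.67% to 10.0% of the counts and genes higher in CCs 34.1% to 40.3%.

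Genes higher in CCs also had the higher oocyte level as a group. The median oocyte level was 37.8 CPM over the genes higher in CCs, 3.73 CPM over those higher in MGCs and 12.2 CPM over all genes tested. A median under 1 CPM in the oocytes was found for 36.9% of the genes higher in MGCs and 14.5% of those higher in CCs, against 23.4% of all genes tested. The oocyte median exceeded the CC median for 49.1% of the genes higher in MGCs, 40.2% of those higher in CCs and 45.3% of all genes tested. The genes higher in CCs were the more abundant group, and the part of this in the oocyte levels was not tested. Oocyte and CC libraries share the SMART-seq2 protocol, which the MGC libraries do not. The part of the protocol in these levels cannot be told apart from that of the cell type.

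RNA of the oocyte itself was scarce in the CC pools. A list of 181 genes with a median of at least 100 CPM in the oocytes and under 1 CPM in the MGCs of medium and large follicles, an alternative chosen after the data were seen, uses none of the 16 libraries compared. These genes held 10.9% to 13.3% of the counts of the 8 small oocytes, 0.00957% to 0.0262% of those of the CC pools (median 0.0125%) and 0.00364% to 0.0162% of those of MGCs (median 0.00560%). The list was chosen for low levels in MGCs with no such limit in CCs, so the comparison of CCs with MGCs was not tested. The share in CC pools was 0.0802% to 0.199% of that in the matched oocyte.

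Most genes were not called, but few of these were shown to be alike. Of the 7384 genes not called, 1100 had a 95% interval of the fold change that lay within 2-fold in either direction. For the other 6284 genes a difference of 2-fold or more was within the interval.

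Among the genes called with a mean of at least 8 CPM over the 16 libraries and the same direction in all 8 follicles, 1938 were higher in MGCs and 1016 in CCs. Of the 10 with the largest fold in favour of MGCs, 8 had no count in any CC pool, and 7 had a median under 1 CPM in the oocytes. Of the 10 with the largest fold in favour of CCs, each had at least 1 count in the MGCs, and 3 had a median under 1 CPM in the oocytes. All 20 genes were also called, in the same direction, in medium follicles and in large follicles. They were called likewise in the 6 small follicles without S50501 and S71701. These 6 are among the follicles by which the genes were chosen, so that result is no separate support. The leading 2 genes of each direction are described below by their identifiers, since no names are paired with them.

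ENSBTAG00000019627 had the largest fold in favour of MGCs. Its level in the 8 MGC libraries was 0.521 CPM at the lowest, 57.5 at the median and 167 at the highest, and it had no count in any of the 8 CC pools. The lowest value belonged to follicle S70501, the next lowest MGC library had 36.1 CPM, and follicles S62005, S62004 and S62003 had the highest levels, 145 to 167 CPM. With the CC pool set to a floor of 3 counts, the level in MGCs was at least 6.01-fold higher in follicle S70501 and at least 248-fold higher in each of the other 7 (edgeR adjusted p = 0.000191). The oocytes held 0 to 7.51 CPM, with no count in follicles S50502 and S71701. In medium follicles the 8 MGC libraries held 23.7 to 221 CPM and the CC pools 0 to 1.59 CPM, and in large follicles the 10 MGC libraries held 0.266 to 318 CPM and the CC pools 0 to 0.520 CPM, so the pools of larger follicles were not all without a count.

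ENSBTAG00000017473 was likewise without a count in all 8 CC pools. In MGCs its lowest level was 0.651 CPM, its median 31.5 and its highest 112. The lowest value was again that of follicle S70501, below 13.5 CPM in the next lowest library, while the highest values, 112 and 97.9 CPM, were those of follicles S50506 and S50502. Against the floor of 3 counts, MGCs were at least 7.52-fold higher in follicle S70501 and at least 81.8-fold higher in the other 7 (edgeR adjusted p = 0.000334). The oocytes held 0 to 1.43 CPM. In medium follicles the levels were 6.66 to 71.9 CPM in MGCs and 0 to 1.22 CPM in CCs, and in large follicles 0 to 33.4 CPM and 0 to 0.347 CPM, with the ranges of large follicles overlapping.

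ENSBTAG00000043549 had the largest fold in favour of CCs, but its rank and size rested on the pools of follicles S50501 and S71701. Its mean over the libraries of the other 6 follicles was 1.95 CPM, under the limit of 8 CPM for genes described singly. The fitted log2 fold change was -10.08 without follicle S50501 and -7.82 without both, against -11.91 and -11.71 for ENSBTAG00000050180. Its level in the CC pools was 0.653 CPM at the lowest, 5.23 at the median and 5468 at the highest. The highest values were those of the libraries that stood apart, 5468 CPM in follicle S50501 and 317 CPM in follicle S71701, and the other 6 pools held at most 9.27 CPM. In MGCs there were 4 counts, all in follicle S62004, and none in the other 7 libraries. Over pooled counts CCs were 59550-fold higher with an exact 95% counting interval from 23258 to 218561, 2984-fold higher (1165 to 10956) without follicle S50501, and 166-fold higher (64.5 to 612) without follicles S50501 and S71701. The difference was called in both sets (edgeR adjusted p = 0.00024 and 0.000221). The oocytes held 2.37 to 116 CPM, above the CC pool of the same follicle in S70501, S62005, S62004 and S50502, and MGCs of medium and large follicles were at 0.0580 CPM or less while their CC pools held 0.574 to 91.8 CPM.

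ENSBTAG00000050180 had the most even pattern of the 4. In the CC pools its lowest level was 3.11 CPM, its median 9.00 and its highest 104, with 1 count in the MGCs of follicle S62004 and none in the other 7 MGC libraries. All CC pools lay above all MGC libraries, follicles S62004 and S50506 being the highest with 104 and 52.4 CPM. The ratio over pooled counts was 4617 with an exact 95% counting interval from 828 to 182418, and 4028 (722 to 159147) without follicles S50501 and S71701 (edgeR adjusted p = 3.67e-06 and 6.28e-06). The oocytes held 0.790 to 7.26 CPM. In medium follicles the CC pools held 7.01 to 196 CPM and in large follicles 0.507 to 38.1 CPM, while no MGC library of these sizes exceeded 0.0580 CPM. The intervals and floors cover counting error only, because amplified reads without molecular identifiers are not independent molecules.

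**Figure D4:**
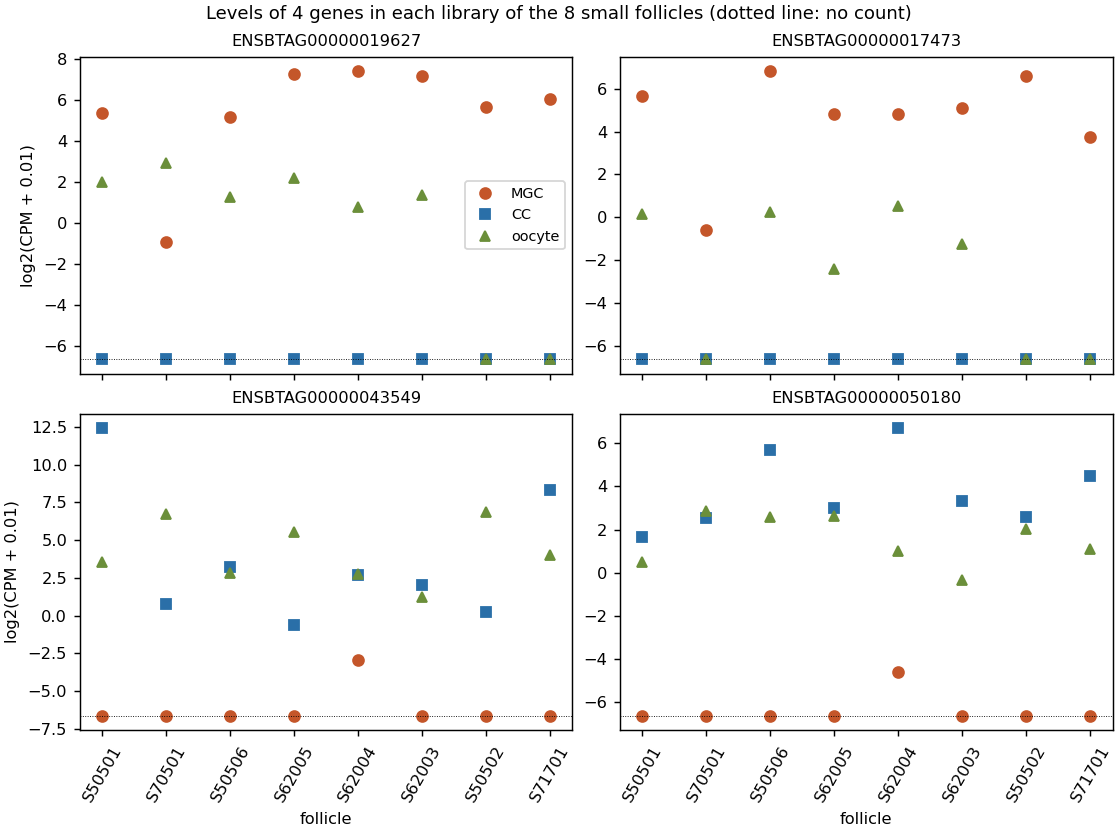
Levels of 4 genes as log2(CPM + 0.01) (y axis) in the MGC library, CC pool and oocyte of each of the 8 small follicles (x axis), with a dotted line for no count. The upper genes lack counts in every CC pool and are lowest in the MGCs of follicle S70501, and the lower left gene peaks at 5468 CPM in the CC pool of follicle S50501.

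Most of the genes called in small follicles also divided MGCs from CCs in medium and in large follicles. The fit was repeated in 8 medium follicles, where 3485 of 13551 genes (25.7%) were higher in MGCs and 2566 (18.9%) in CCs, 44.7% in all, and in 10 large follicles, where 3966 of 13824 genes (28.7%) were higher in MGCs and 3021 (21.9%) in CCs, 50.5% in all. These comparisons share no library with the small follicles. Of the 3809 genes higher in MGCs in small follicles, 2899 (76.1%) were called in the same direction in medium and 2883 (75.7%) in large follicles, which was 83.2% and 72.7% of the calls there. Of the 2392 genes higher in CCs, 1760 (73.6%) and 1779 (74.4%) were called in the same direction, which was 68.6% and 58.9% of the calls there. No gene of either group was called in the opposite direction in medium follicles, and 11 were in large follicles, all of them higher in MGCs in small follicles. In all 3 size classes 2548 genes were higher in MGCs and 1557 in CCs. The size classes share the difference in library protocol, and its part in this overlap was not tested.

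Few genes were called for a different size of the MGC to CC difference between size classes. A gene not called was not shown to be alike across size classes, and no intervals were computed for this comparison. Among 14184 genes tested in a joint edgeR fit, the difference in small follicles departed from that in medium follicles for 1 gene (0.00705%), and from that in large follicles for 90 genes (0.635%). At an unadjusted p under 0.05 with the same fold limit there were 913 and 2107 such genes. With DESeq2 the numbers were 146 and 1371, and without follicles S50501 and S71701 they were 0 and 24. The gene that departed from medium follicles had a log2 fold change of MGCs over CCs of -3.38 in small follicles (edgeR adjusted p = 0.00057), with a median of 7.60 CPM in MGCs and 70.4 CPM in CCs. Its median in MGCs was 0.288 CPM in medium and 0.277 CPM in large follicles and that in CCs was 79.9 and 110 CPM, so the MGC level was the one that lay higher in small follicles. The departure was 4.70 on the log2 scale (SE 0.78, edgeR adjusted p = 0.0212).

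The genes that departed between small and large follicles leaned to one side. In small follicles 82 of the 90 genes (0.578% of those tested) were shifted towards MGCs and 8 (0.0564%) towards CCs. Of the first group, 81 were also tested in the fit of small follicles alone, where 27 were called higher in MGCs, 16 were called higher in CCs and the others were not called. Over these 81 genes the median log2 fold change of MGCs over CCs was 0.27 in small follicles, -0.88 in medium ones and -2.10 in large ones. Their median level in MGCs was 32.1 CPM at the small size, 20.9 CPM at the medium size and 9.15 CPM at the large size, and that in CCs was 20.3, 32.5 and 46.4 CPM. The median level was thus lower in MGCs and higher in CCs of the larger follicles. The 8 genes shifted towards CCs had median log2 fold changes of -0.10 for small follicles, 0.57 for medium and 1.52 for large ones, with MGC levels of 25.4, 41.7 and 62.0 CPM. These medians follow from the choice of the genes by this difference and were not tested.

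**Figure D5:**
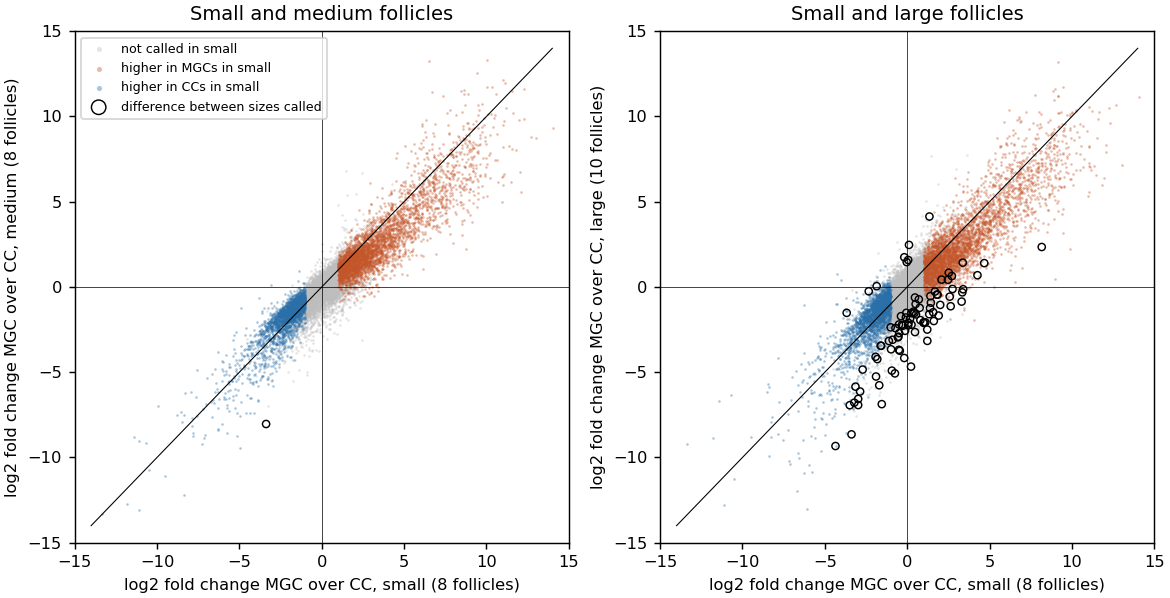
Log2 fold change of MGCs over CCs in small follicles (x axis, 8 follicles) against that in medium (left, 8 follicles) and large follicles (right, 10 follicles) for the genes tested in small follicles, coloured by the call in small follicles, with a line at equal values. Open circles mark genes whose difference departed between the size classes, with most of those on the right below the line.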

How the data were processed

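The authors trimmed the reads and counted uniquely mapping reads over exons per gene with featureCounts. Their methods name STAR and the ARS-UCD1.2 genome, whereas the submitters' processing notes name HISAT2 2.2.1, and which aligner made the counts was not settled. The deposited values are raw counts per gene for 27270 Ensembl identifiers in 90 columns, without normalization.

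CPM was computed from column totals. Genes that exceeded 1 CPM in 4 or more of the 8 libraries of either cell type were tested with edgeR 4.0.16 in R 4.3.3 (TMM, glmQLFit and glmQLFTest, follicle as block, Benjamini-Hochberg adjustment), and the script was tested on simulated data. The joint fit over size classes used the same model with an interaction. Alternatives were DESeq2 1.42.0, limma 3.58.1 with voom and sample weights, other scalings, filters and thresholds, no block, and subsets of follicles. Exact tests, thinning (seed 1) and similarities used Python 3.11.15, numpy 2.4.6, scipy 1.17.1 and pandas 2.3.3, and plots matplotlib 3.10.9. Total counts of 8760201 to 38374499 set the precision, and PCR duplicates were not marked by molecular identifiers.

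MGCs and CCs of a number come from 1 follicle, which is the pairing of the study. Deviations from the cell type means correlated within follicles with r from -0.089 to 0.187, above 0.1 in 1 of 8 pairs. The members and lists were chosen with earlier results of these data known. The genes described singly were, among those called with a mean of at least 8 CPM and 1 direction in 8 of 8 follicles, the 2 with the largest log2 fold change in each direction. The rule asked for symbols and more genes, but the identifiers are paired with names in none of the tables used, so the planned lists and markers were not analysed here. With at most 2 identifiers given in each direction, the gene that departed between small and medium follicles is not named.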

Additional observations from a re-analysis of the deposited data

Results flagged for a closer look

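Among 25 groups of 8 values examined with Dixon's test, 6 had a value farther from the others than its 95% critical value allows, and about 1 in 20 would by chance. Of these, 3 belonged to the CC pool of follicle S50501. At equal depth it had 10977 genes detected, against 13558 in the next lowest pool. The 187 genes with a median of at least 100 CPM in the 8 oocytes and under 1 CPM in the 8 MGC libraries held 0.0373% of its counts, against 0.0199% in the next highest pool. ENSBTAG00000043549 stood at 5468 CPM there, against 317 CPM in the next highest. Likewise, the share of the genes called higher in CCs that were higher in the CC pool was 62.0% in follicle S50501, against 84.5% in the next lowest. In follicle S70501, 86.7% of the genes called higher in MGCs were higher in MGCs, against 95.9% in the next lowest. The MGC library of follicle S50502 held 0.0141% of its counts in the 187 oocyte-abundant genes, against 0.00698% in the next highest MGC library.

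The MGC to CC difference departed between small and medium follicles in 1 gene and between small and large follicles in 90 genes, by the interaction test in edgeR.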

How the results depend on the processing

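The counts of genes higher in MGCs and in CCs stayed within 1.5 times of the reported ones under most alternatives, among them DESeq2 (4893 and 2484), limma with sample weights (4127 and 2941), no replicate block (3821 and 2848) and leaving out each follicle in turn (3281 to 3864 and 2038 to 2718). They fell to 888 and 1075 of 12728 genes with the 3 follicles S50501, S50506 and S50502, which include a CC pool that stood apart. A fold limit of 4 gave 1163 genes higher in CCs. The departures from medium follicles, 1 gene as reported, numbered 146 with DESeq2, 9 without the replicate block, 6 in the study's healthy follicles, and 0 both without follicles S50501 and S71701 and with all medium follicles. Those from large follicles, 90 as reported, numbered 1371 with DESeq2, 518 without the replicate block, 50 with column totals and 24 without follicles S50501 and S71701. The cause was not tested. Leaving out each follicle in turn gave mean differences in genes detected of 2078 to 2896. In the same way, the 187 genes abundant in the small oocytes and low in the small MGCs had CC minus MGC shares of 0.00736 to 0.0124 percentage points. The value over all 8 follicles was 0.0103. These genes were chosen for low levels in the same MGC libraries with no such limit in CCs. That choice favours a positive difference, so the range is given as a description only. The 4 genes described singly stayed called in their direction in all alternatives that tested them, with fitted log2 fold changes as far apart as -19.68 and -7.82 for ENSBTAG00000043549. The marker list alternatives were not run. The shallow depth of the CC pool of follicle S62004, with 8760201 counts, limits what can be said of genes near 1 CPM in it. The other CC pools held 20609705 to 34620362 counts.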

Other observations

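In MGCs the 20 genes with the highest median CPM had medians of 3642 to 42623 CPM and held 9.23% to 20.5% of the counts, and 5 of them were called higher in MGCs, 0 were called higher in CCs and 15 were not called. In CCs the 20 such genes had medians of 3450 to 32846 CPM and held 14.6% to 23.7% of the counts, and 11 were called higher in CCs, 1 was called higher in MGCs and 8 were not called. Over all genes tested 28.0% were called higher in MGCs and 17.6% higher in CCs, and each list was chosen for its level in 1 cell type, which favours calls for that type. The lists share 7 genes.

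The CC pools of follicles S50501 and S71701 were set apart by more genes that were low in them than genes that were high, by limits chosen after the data were seen. There were 228 genes at over 10 CPM in all other 6 CC pools and more than 10-fold below the lowest of them in both of these pools, and these genes held 2.11% to 3.27% of the counts of the 6 pools, 0.0481% and 0.101% in follicles S50501 and S71701, 1.56% to 2.73% in MGCs and 0.869% to 1.71% in oocytes. In the opposite direction, 5 genes exceeded 10 CPM and lay over 10-fold above the other 6 pools in both, and they held 0.573% and 0.0656% of the counts. Of the 228 genes, 25 were called higher in MGCs and 15 higher in CCs, which is 10.96% and 6.58%, against 28.0% and 17.6% of all genes tested. These genes were chosen for a wide spread between the CC pools that also made the calls. That choice by itself favours fewer calls, so the lower shares are given as a description only.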
